A study of Mus musculus with 24 samples.

Results

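The genes examined here are 10 liver genes grouped under pulsatile growth hormone and the transcription factor STAT5: Hsd3b5, Cyp4a12a, Cyp4a12b, Elovl3, Slco1a1, Selenbp2, Susd4, Cish, Bcl6 and Cux2. They need not all respond to the pulses in the same direction. The 10 were taken by symbol from the 55797 gene names in the files, as a list made with earlier results of these data known. All 10 were found, and all 10 passed the filter on low counts, as did 19352 liver genes in total. Expression was measured by poly(A) RNA sequencing in 12 liver libraries of male C57/BL6 mice with a treatment entry of 16 weeks. The db/db mice carry a leptin receptor mutation on both chromosomes, and the db/+ controls carry it together with an intact copy. Genotypes are those of the sample titles, which a separate genotype entry contradicts for part of the samples. Each genotype drank water, sucrose or brazzein, a protein that tastes sweet, and each combination had 2 libraries. The age of the mice and whether the 2 libraries of a group come from separate animals are not stated in the labels, so p-values measure the spread between these libraries, which may be technical.

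The pituitary of male mice releases growth hormone in separated pulses, whereas in females the hormone is present more steadily. Each pulse activates the growth hormone receptor on hepatocytes, the receptor-bound kinase JAK2 phosphorylates STAT5, and STAT5 enters the nucleus and binds DNA at short palindromic elements. Genes that follow the pulses are more highly expressed in male liver, while repressors such as Bcl6 (male-biased) and Cux2 (female-biased) shape which sex-dependent genes are active. Cish and Socs2 are induced by STAT5 and act back on the receptor as inhibitors.

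Promoter sequences show which of the genes carry the letters of the STAT5 element close to a start site. Elements bound by BCL6 can share these letters and are not told apart here. RefSeq windows on GRCm38.p6, from 250 bases before to 50 after a start site, were at hand for 7 of the 10 genes (10 windows); those of Cyp4a12a, Cyp4a12b and Elovl3 were not used here. The element TTCNNNGAA, searched on both strands (it is its own reverse complement), was found in Cish and Bcl6. That is 2 of 7 genes and 3 of 10 windows. Among all genes, 2582 of 27025 gene symbols and 8.3% of 32851 promoter windows hold it. Cish, the classical STAT5-induced inhibitor, had a pair of elements, starting at base 1 and base 12 from its start site. Bcl6 had 1 element upstream of its first listed start site and 3 upstream of its second. They are shown because they are the only such matches among the 10 windows, with the elements in capitals, at chr9:107296539-107296680 (plus strand) for Cish and chr16:23988947-23988992 and chr16:23981284-23981463 (minus strand) for Bcl6, all 5′ to 3′.
Cish: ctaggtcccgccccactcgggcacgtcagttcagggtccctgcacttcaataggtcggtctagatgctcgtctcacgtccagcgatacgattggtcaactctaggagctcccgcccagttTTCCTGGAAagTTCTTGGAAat
Bcl6, first start site: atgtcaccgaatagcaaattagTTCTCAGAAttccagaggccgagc
Bcl6, second start site: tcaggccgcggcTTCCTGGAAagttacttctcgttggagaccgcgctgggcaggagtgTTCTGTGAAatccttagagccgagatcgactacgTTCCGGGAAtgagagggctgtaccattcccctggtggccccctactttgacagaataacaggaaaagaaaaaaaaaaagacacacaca
The HNF6 and CUX element ATTGAT, searched on both strands, was in none of the 7 genes' windows (7.54% of all windows hold it), and TATAAA was in those of Slco1a1, Selenbp2 and Cux2 (13.6% of all windows). These are matches of letters within the window and not measured binding.

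Cyp4a12a and Cyp4a12b are so alike that reads may be shared between them. The genes lie on the plus strand at chr4:115299046-115332815 (Cyp4a12a) and chr4:115411624-115439034 (Cyp4a12b) on GRCm38. Their coding sequences in GENCODE M21, each 1527 bases long, are identical at 98.5% of positions, with 23 mismatches. Coding bases 646 to 765 are shown because no other 120-base stretch compared held more of these differences (8, in capitals below). The copies are thus shown where they are easiest to tell apart.
Cyp4a12a: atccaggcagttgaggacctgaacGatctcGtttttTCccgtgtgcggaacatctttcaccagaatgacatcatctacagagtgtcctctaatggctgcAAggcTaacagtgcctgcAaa
Cyp4a12b: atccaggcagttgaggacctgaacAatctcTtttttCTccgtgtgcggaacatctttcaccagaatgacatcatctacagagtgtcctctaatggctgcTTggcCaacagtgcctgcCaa
Selenbp2 shares 98.7% of its 1419 coding bases with Selenbp1, and Hsd3b5 shares 95.2% of its 1122 with Hsd3b4. How the authors counted reads that match both copies is not given in the sources used here, so the values of these 4 genes are uncertain to that extent.

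The 12 libraries held 60384569 to 79385804 estimated counts. Among 11348 genes whose median count was 100 or more, 11.7% had at least 1 library below 0.1 times that median, most often in replicate 2 of the db/db brazzein livers (5.14% of the genes) and replicate 1 of the db/+ brazzein livers (4.13%). Lepr, the mutated gene, ran from 1.90 to 18.9 CPM in db/+ and from 0.690 to 2.50 in db/db. CPM values are counts scaled to a common library size after TMM scaling. The 7 hepatocyte markers summed to 70010 to 91630 CPM in db/+ and 68020 to 95740 in db/db. Alb makes up most of that sum (means of 56720 and 65200 CPM), and the markers were uneven, with a list median of -0.46 on the log2 scale. Where 7.27% of all genes were lower in db/db and 7.91% higher, 1 of 7 markers was lower and 0 higher. The marker that passed was Serpina1c, with means of 5889 CPM in db/+ and 1796 in db/db (log2 -1.72, SE 0.13, edgeR adjusted p = 0.000504), while Apoa1 averaged 8025 CPM against 2921 (edgeR adjusted p = 0.149). The summed level of 6 erythroid markers was higher in db/db (884 to 2851 CPM against 489 to 974), and 8 macrophage markers summed to 139 to 293 against 70.6 to 269. No marker of these 3 lists was at 0 throughout, and their part in the results was not tested. In bulk tissue, fewer cells of a type and less RNA per cell cannot be told apart.

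Averaged over the drinks, 6 of the 10 genes were lower in db/db than in db/+ liver and 0 were higher, a count that describes genes chosen with earlier results of these libraries known. The 6 were Hsd3b5, Cyp4a12a, Cyp4a12b, Elovl3, Slco1a1 and Susd4. Over all tested genes, 7.27% were called lower and 7.91% higher (edgeR quasi-likelihood test, Benjamini-Hochberg adjusted p under 0.05). The median log2 difference of the 10 genes was -2.59, and it was -0.03 over all tested genes. For 4 genes, Cyp4a12a, Cyp4a12b, Slco1a1 and Susd4, all 6 db/db libraries lay below all 6 db/+ libraries, as did 3.51% of all genes, while 4.91% of all genes showed the reverse order.

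**Figure D1:**
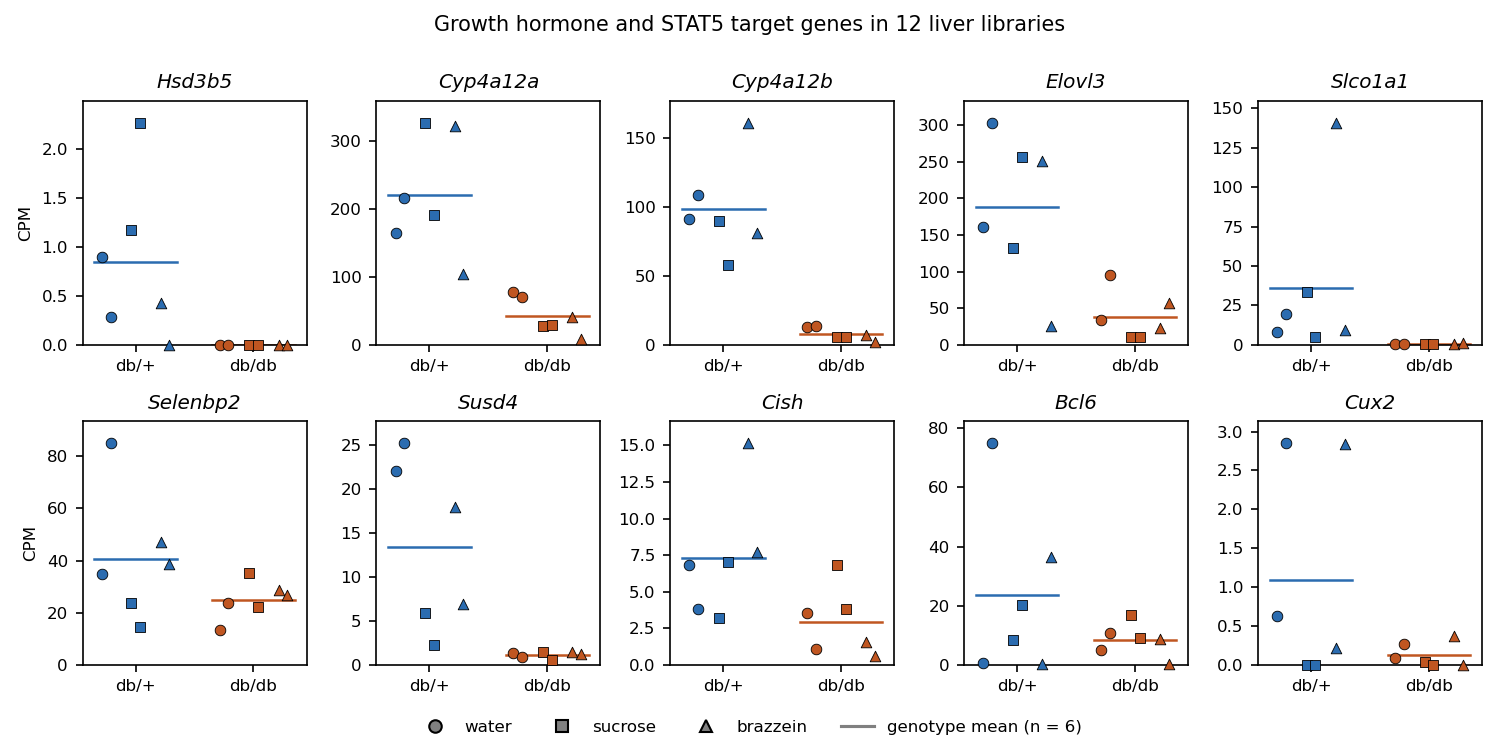
CPM of the 10 genes in each of 12 liver libraries (points, shaped by drink; y axis linear from 0) with the mean of each genotype (lines, n = 6). Cyp4a12a, Cyp4a12b, Slco1a1 and Susd4 separate the genotypes completely, whereas Bcl6 and Cux2 spread from near 0 upwards in both.

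Cyp4a12a and Cyp4a12b encode male-biased fatty acid omega-hydroxylases. In db/+ liver, Cyp4a12a held 165 and 216 CPM (water), 326.5 and 192 (sucrose), 323 and 104 (brazzein). In db/db liver it held 77.8 and 70.6 CPM (water), 27.5 and 29.7 (sucrose), 40.3 and 8.75 (brazzein). The highest db/db library, on water, stayed below the lowest db/+ library, on brazzein. Cyp4a12a fell from 221 ± 88.4 to 42.4 ± 26.7 CPM (SD, n = 6 each), a log2 difference of -2.55 (SE 0.43, edgeR adjusted p = 0.00833).

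Cyp4a12b separated the genotypes further. Its db/+ libraries held 91.1 and 109 CPM (water), 89.3 and 58.0 (sucrose), 160.5 and 81.1 (brazzein). Its db/db libraries held 12.8 and 13.3 CPM (water), 5.64 and 5.90 (sucrose), 7.25 and 1.61 (brazzein). The log2 difference was -3.79 (SE 0.39, edgeR adjusted p = 0.00145). Within a library, Cyp4a12b stood at 27.3% to 77.7% of the Cyp4a12a CPM in db/+ (median 50.1%) and at 16.4% to 20.5% in db/db (median 18.6%), ranges that do not overlap. That ratio was examined after the values had been seen and carries no test. Both copies were below 0.1 times their median count in replicate 2 of the db/db brazzein livers, the library with the most such genes, and both calls held without it.

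Slco1a1, a male-biased transporter of organic anions in hepatocytes, differed most among the genes detected in both genotypes. It held 8.17 and 19.4 CPM (water), 33.1 and 4.97 (sucrose), 141 and 9.35 (brazzein) in db/+. In db/db it held 0.182 and 0.113 CPM (water), 0.472 and 0.336 (sucrose), 0.421 and 1.13 (brazzein). Every db/db library was below every db/+ library, and replicate 1 of the db/+ brazzein livers was several times above the other db/+ libraries. The log2 difference was -6.23 (SE 0.88, edgeR adjusted p = 0.00451). It was -5.21 (adjusted p = 0.00459) without that library and -5.57 (adjusted p = 0.0103) without replicate 1 of the db/+ sucrose livers.

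Susd4, a membrane protein that inhibits complement activation, followed the same order. Its db/+ libraries held 22.1 and 25.2 CPM (water), 5.95 and 2.23 (sucrose), 18.0 and 6.93 (brazzein), against 0.573 to 1.49 CPM (median 1.29) in the 6 db/db libraries. The db/db values were alike across drinks, and the lowest db/+ library, on sucrose, was still above them. The log2 difference of Susd4 was -3.20 (SE 0.40, edgeR adjusted p = 0.00312).

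Elovl3, an elongase of very long chain fatty acids, was lower in db/db, with overlap. The db/+ libraries held 161 and 303 CPM (water), 133 and 257 (sucrose), 251 and 25.5 (brazzein). The db/db libraries held 34.0 and 94.9 CPM (water), 10.2 and 10.4 (sucrose), 22.2 and 57.0 (brazzein). Replicate 2 of the db/+ brazzein livers lay within the db/db range, and the other 5 db/+ libraries lay above it. The log2 difference was -2.63 (SE 0.59, edgeR adjusted p = 0.0230). The call was lost (adjusted p = 0.0519 to 0.0775) when any of 7 libraries was left out: replicate 2 of db/+ on water or on sucrose, either db/db library on water or sucrose, or replicate 1 of db/db on brazzein. Without replicate 1 of the db/+ brazzein livers the log2 difference was -1.80 (adjusted p = 0.0325).

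Hsd3b5, the male-specific liver member of the 3-beta-hydroxysteroid dehydrogenase family, was scarce in these libraries. All 6 db/db libraries listed it at 0. In db/+ it held 0.893 and 0.286 CPM (water), 1.18 and 2.26 (sucrose), 0.430 and 0 (brazzein). So 5 of 6 db/+ libraries had a value above 0 and 1 did not. With a floor of 3 counts per db/db library, the db/+ mean of 0.841 CPM was at least 21.1-fold higher, and edgeR gave an adjusted p of 0.0276. Without replicate 2 of the db/+ sucrose livers that mean was 0.557 CPM and the bound 14-fold. That call was lost when any of 10 of the 12 libraries was left out (adjusted p = 0.0506 to 1, the latter without replicate 1 of the db/+ brazzein livers). It held only without replicate 2 of the db/+ brazzein livers (adjusted p = 0.00899) or replicate 1 of the db/db brazzein livers (adjusted p = 0.0478).

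The remaining 4 genes did not pass. Cish, the STAT5-induced feedback inhibitor shown above, held 6.86 and 3.85 CPM (water), 3.18 and 7.06 (sucrose), 15.1 and 7.70 (brazzein) in db/+. In db/db it held 3.55 and 1.08 CPM (water), 6.82 and 3.82 (sucrose), 1.55 and 0.586 (brazzein). The genotypes overlapped on sucrose, and on water and brazzein they did not. Its log2 difference was -1.52 (SE 0.44, edgeR adjusted p = 0.0531), while DESeq2 gave an adjusted p of 0.00425. Leaving out replicate 1 of the db/db water livers gave an edgeR adjusted p of 0.0446. Without both brazzein groups the log2 difference was -0.55 (edgeR adjusted p = 0.492), and over all alternatives the adjusted p ran from 0.00425 to 0.492.

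Selenbp2, a male-biased selenium-binding protein gene, ranged from 14.4 to 85.0 CPM in db/+ (median 36.8) and from 13.3 to 35.2 in db/db (median 25.4). The ranges overlapped widely, and the log2 difference was -0.58 (SE 0.27, edgeR adjusted p = 0.192). Its close copy Selenbp1 was at 250 ± 90.9 CPM in db/+ and 310 ± 39.4 in db/db (SD, n = 6 each, edgeR adjusted p = 0.221).

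Bcl6 and Cux2, the 2 transcriptional repressors, varied more between libraries than between genotypes. Bcl6 held 0.489 and 74.9 CPM (water), 8.32 and 20.4 (sucrose), 0.430 and 36.3 (brazzein) in db/+. In db/db it held 5.18 and 10.7 CPM (water), 16.8 and 9.13 (sucrose), 8.66 and 0.337 (brazzein). In 3 libraries it was below 0.1 times its median count: replicate 1 of db/+ on water, replicate 1 of db/+ on brazzein and replicate 2 of db/db on brazzein. Its log2 difference was -1.48 (SE 1.27, edgeR adjusted p = 0.472), and the sign turned to 0.63 without replicate 2 of the db/+ water livers and to 0.35 without replicate 2 of the db/+ brazzein livers. Without replicate 1 of the db/db brazzein livers it was -2.71 (adjusted p = 0.274).

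Cux2 was low throughout. In db/+ it held 0.623 and 2.85 CPM (water), 0 in both sucrose libraries, and 0.215 and 2.84 (brazzein). In db/db it held 0.0840 and 0.264 CPM (water), 0.0383 and 0 (sucrose), 0.369 and 0 (brazzein). Of the 12 libraries, 4 were listed at 0, and the edgeR adjusted p was 0.962. Its fitted log2 difference of -0.93 (SE 7.81) rests on those zeros and is not read as a fold. DESeq2 gave -1.20 (SE 1.27), so the size of that SE depends on the method.

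The genotype difference was then examined on each drink, with 2 libraries against 2. On water, 1 of 10 genes was called lower, Susd4 (log2 -4.41, SE 0.74, edgeR adjusted p = 0.0353), and 0 higher, where 0.543% of all genes were called lower and 0.971% higher. On sucrose 0 of 10 were called in either direction, where 0.398% of all genes were lower and 0.47% higher. On brazzein 1 of 10 was called lower, Cyp4a12b (log2 -4.77, SE 0.70, edgeR adjusted p = 0.0208), and 0 higher, where 0.651% of all genes were lower and 0.925% higher.

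All 6 genes called over drinks had a negative log2 difference on each drink. Cyp4a12a differed by -1.36 (SE 0.71) on water, -3.18 (SE 0.76) on sucrose and -3.12 (SE 0.76) on brazzein, on the log2 scale. Slco1a1 differed by -6.54 (SE 1.55), -5.55 (SE 1.47) and -6.60 (SE 1.53). Elovl3 differed by -1.85 (SE 0.99), -4.24 (SE 1.10) and -1.80 (SE 0.99). Cish was the gene whose estimates lay furthest apart among those that did not pass, with -1.21 (SE 0.75) on water, 0.05 (SE 0.74) on sucrose and -3.41 (SE 0.81) on brazzein, leaving aside Cux2 with its libraries at 0. With DESeq2, 5 genes passed on water, 6 on sucrose and 5 on brazzein, all lower in db/db, among 11.0%, 8.22% and 9.88% of all genes. Selenbp2 was among them on water (adjusted p = 0.0199) and Cish on brazzein (adjusted p = 0.000343).

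**Figure D2:**
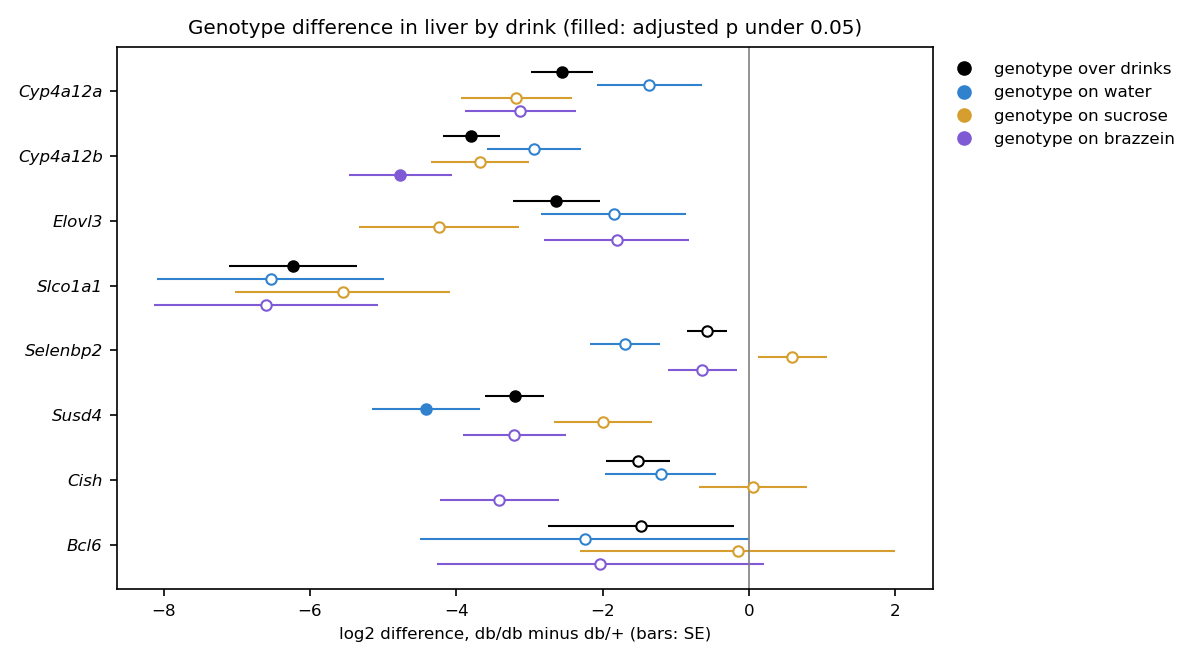
Log2 difference between db/db and db/+ liver for 8 genes (x axis; points, bars are the SE), averaged over drinks and on each drink; filled points have an adjusted p under 0.05. Hsd3b5 and Cux2, listed at 0 in many libraries, are left out. Cyp4a12a, Cyp4a12b, Elovl3, Slco1a1 and Susd4 lie below 0 on every drink, and the sucrose estimates of Selenbp2 and Cish lie above it.

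None of the 10 genes passed the edgeR test between drinks. Within db/db, 0 of 10 were called for sucrose against water, brazzein against water or brazzein against sucrose, where 0.00517%, 0.119% and 0.16% of all genes were called. Within db/+, 0 of 10 were called in the same 3 comparisons, where 0.0155%, 0.00517% and 0.0207% of all genes were called. By the interaction term, 0 of 10 were called for a drink difference that differed between genotypes, where 0.0155%, 0.0672% and 0.0672% of all genes were called. Each of these comparisons rests on 2 libraries a group.

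Some of the 10 genes had an unadjusted p under 0.05 in these drink comparisons, as did 827 to 2848 of the 19352 tested genes per comparison. Susd4 in db/+ was lower on sucrose than on water (log2 -2.53, SE 0.68, edgeR adjusted p = 0.675), with both sucrose libraries below both water libraries. Selenbp2 in db/+ was also lower on sucrose (log2 -1.66, SE 0.48, edgeR adjusted p = 0.675), at 23.6 and 14.4 CPM against 34.7 and 85.0. Elovl3 in db/db was lower on sucrose than on water (log2 -2.64, SE 1.02, edgeR adjusted p = 1), at 10.2 and 10.4 CPM against 34.0 and 94.9. Cyp4a12b in db/db was lower on brazzein than on water (edgeR adjusted p = 0.535). Selenbp2 and Susd4 in db/+ were higher on brazzein than on sucrose (edgeR adjusted p = 0.546 for each). Cux2 in db/+ was lower on sucrose than on water or brazzein. The interaction of sucrose minus water had such a p for Selenbp2 and Susd4, and Cish is given below. None of these passed the edgeR test after adjustment.

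The estimates for Cish between sucrose and brazzein had opposite signs in the 2 genotypes, and neither passed the edgeR test. In db/db the estimate for brazzein minus sucrose was -2.31 (SE 0.78, edgeR adjusted p = 0.233) on the log2 scale, and in db/+ it was 1.16 (SE 0.75, edgeR adjusted p = 0.727). The interaction was -3.47 (SE 1.08, edgeR adjusted p = 0.397). DESeq2 called Cish in db/db (7.12% of all genes) and in the interaction (2.56%), Susd4 and Cux2 for sucrose against water in db/+ (1.16%), and Cux2 for brazzein against sucrose in db/+ (2.27%). The Cux2 calls rest on the db/+ sucrose libraries, both listed at 0.

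The receptor, the kinase and the STAT5 factors of this pathway did not pass the edgeR test between genotypes, and their ranges over all drinks overlapped. Ghr, the growth hormone receptor, ran from 266 to 317 CPM in db/+ (median 288) and from 210 to 307 in db/db (median 299), with a log2 difference of -0.10 (SE 0.12, edgeR adjusted p = 0.643). Jak2 ran from 8.63 to 13.3 CPM in db/+ and from 10.8 to 14.7 in db/db (edgeR adjusted p = 0.356). Stat5b, the main STAT5 form of hepatocytes, ran from 0.311 to 34.4 CPM in db/+ (median 6.72) and from 0.724 to 33.9 in db/db (median 28.3; log2 1.19, SE 1.19, edgeR adjusted p = 0.545). Stat5a, the other STAT5 form, had medians of 4.11 CPM in db/+ (0.986 to 10.1) and 16.2 in db/db (1.26 to 18.9), with a log2 difference of 1.33 (SE 0.54, edgeR adjusted p = 0.132), and DESeq2 called it higher (adjusted p = 0.0471). For Stat5a and Stat5b the overlap came from the brazzein libraries. On water and sucrose Stat5a ran from 2.56 to 10.1 CPM in db/+ and from 15.8 to 18.9 in db/db. Stat5b ran there from 0.311 to 18.9 CPM in db/+ and from 26 to 33.9 in db/db. Like Bcl6, Stat5b was near 0 in some libraries of both genotypes, and its estimate changed sign without replicate 2 of the db/db brazzein livers (log2 -0.28).

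Socs2 and Irs1 were lower in db/db. Socs2, a STAT5-induced inhibitor of the receptor, ran from 7.47 to 50.3 CPM in db/+ and from 4.44 to 8.61 in db/db, overlapping only through replicate 1 of the db/+ sucrose livers (7.47) and replicate 1 of the db/db water livers (8.61). Its log2 difference was -2.36 (SE 0.37, edgeR adjusted p = 0.00642). Irs1, an adaptor of insulin and growth hormone signalling, differed by -1.85 (SE 0.20, edgeR adjusted p = 0.00169). These were the 2 genes lower of 15 in the list of receptor and JAK-STAT genes, and 0 were higher (list median -0.0015 on the log2 scale). Over all genes, edgeR called 7.27% lower and 7.91% higher. DESeq2 called 2 of the list lower and 3 higher, where it called 4848 of all 19352 genes in either direction. The 3 higher were Stat5a and the phosphatase genes Ptpn1 (log2 0.27, SE 0.094) and Ptpn11 (log2 0.30, SE 0.11). Without both brazzein groups edgeR called 2 of the list higher, where it called 2469 of 18911 genes in either direction.

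Of 6 genes of the IGF system, 3 were lower and 0 higher, where 7.27% of all genes were lower and 7.91% higher. The list median was -0.73 on the log2 scale. Igf1, the hormone the liver secretes under growth hormone, ran from 411 to 781 CPM in db/+ and from 173 to 335 in db/db (log2 -1.29, SE 0.19, edgeR adjusted p = 0.00486). Igfals, which stabilises IGF1 in blood, ran from 104 to 126 CPM against 14.9 to 55.3 (log2 -1.65, SE 0.26, edgeR adjusted p = 0.00705). Igfbp2, an IGF binding protein, ran from 759 to 1240 CPM against 6.17 to 28.8 (log2 -6.08, SE 0.46, edgeR adjusted p = 0.000504). In all 3 the genotypes did not overlap.

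**Figure D3:**
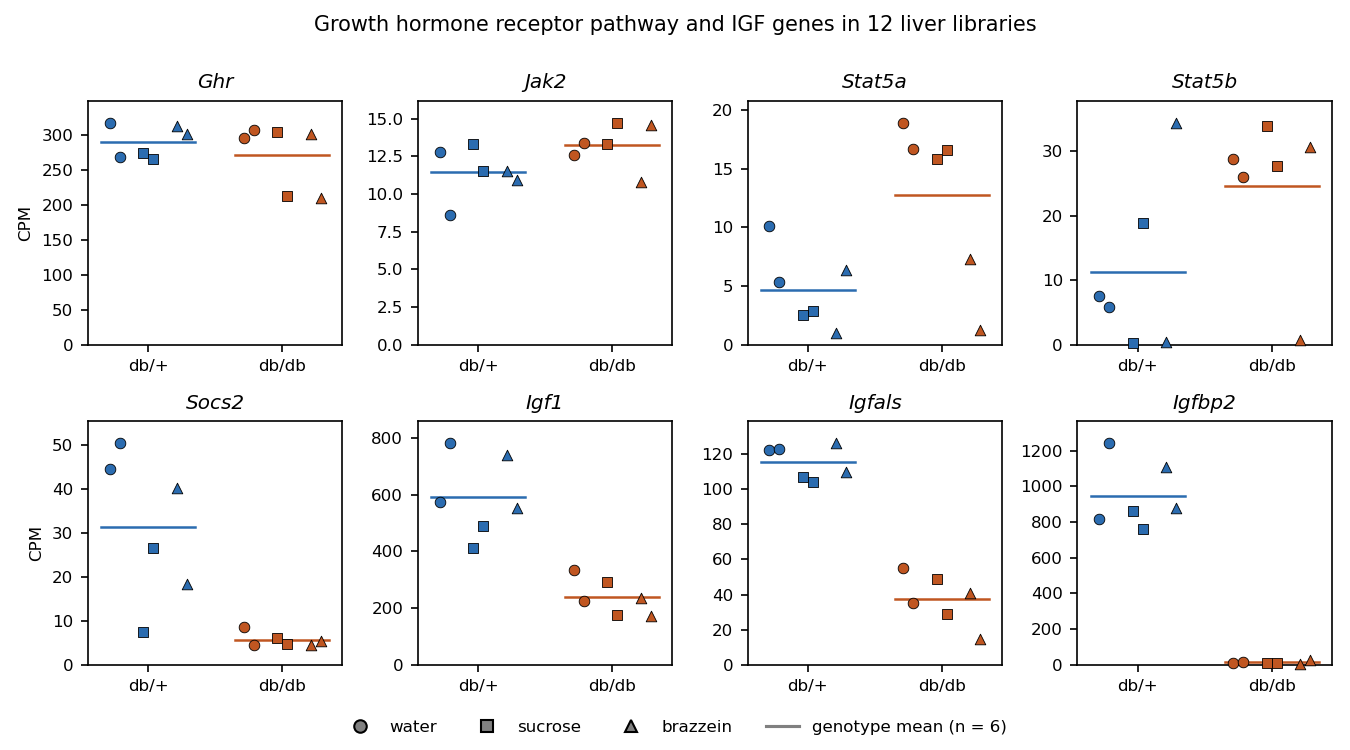
CPM of 8 genes of the growth hormone receptor pathway and the IGF system in 12 liver libraries (points, shaped by drink; y axis linear from 0) with genotype means (lines, n = 6). Igf1, Igfals and Igfbp2 separate the genotypes, Ghr and Jak2 overlap, and Stat5b is near 0 in some libraries of both.

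Other sex-dependent liver genes were counted from lists that leave out the 10 genes. Of 23 male-biased genes, 16 were lower in db/db and 2 higher, where 7.27% of all genes were lower and 7.91% higher. The median log2 difference of the list was -2.07. The 4 with the smallest p were the complement genes C8b (124 to 261 CPM in db/+ against 19.0 to 39.5 in db/db) and C8a (269 to 495 against 50.7 to 125), the growth factor receptor Egfr (71.7 to 219 against 15.9 to 29.4) and Serpina1e (839 to 4670 against 14.0 to 32.8), a serine protease inhibitor of a family of near-identical copies. Those higher were Fitm1, a lipid droplet protein (log2 1.67, SE 0.34), and Rarres1, a retinoid-responsive gene (log2 1.33, SE 0.29).

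Of 32 female-biased genes, 12 were higher in db/db and 0 lower, where 7.91% of all genes were higher and 7.27% lower. The median log2 difference of the list was 1.51. Cyp2b13, a female-specific cytochrome P450 with close copies, ran from 25.0 to 290 CPM in db/db against 0.0816 to 0.761 in db/+. Slc22a27, an organic anion transporter, ran from 11.5 to 24.5 against 0.950 to 2.56. Sult1e1, the estrogen sulfotransferase, ran from 12.6 to 81.6 against 0 to 4.50, and Sult3a1 ran from 0.497 to 2.45 in db/db and had no count above 0 in db/+. Over the list, 8 of 32 genes had all db/db libraries above all db/+ libraries and 0 the reverse, against the 4.91% and 3.51% of all genes given above. Since the lists were chosen with earlier results of these data known, their counts are descriptions.

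**Figure D4:**
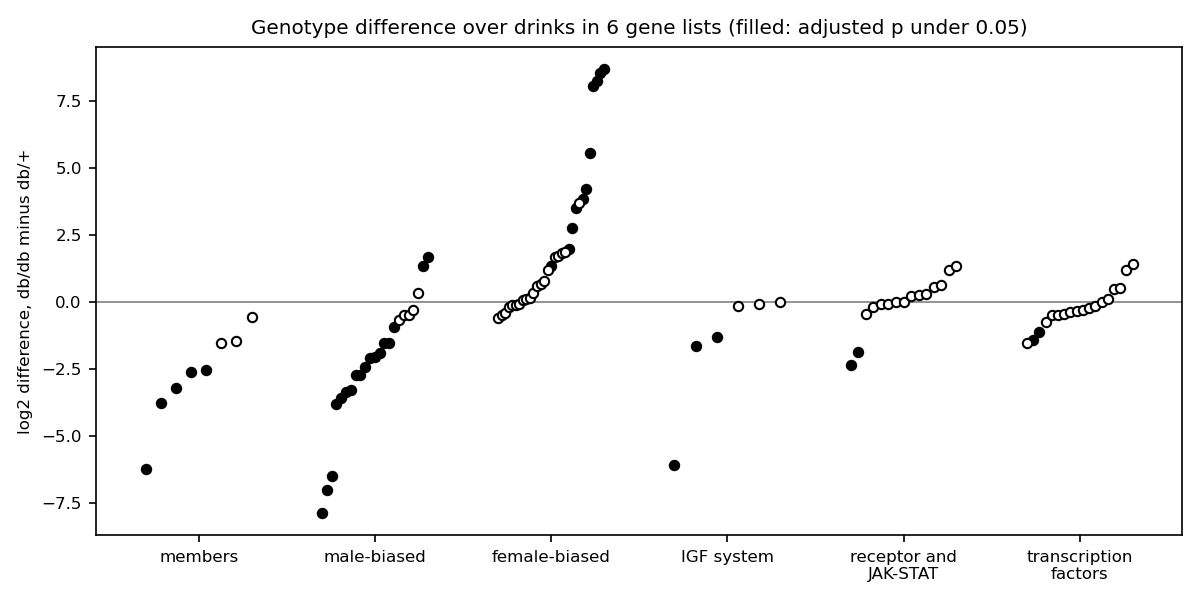
Log2 difference between db/db and db/+ liver over drinks (y axis) for each tested gene of 6 lists (points in order of value; filled where the adjusted p is under 0.05). Hsd3b5 and Sult3a1, listed at 0 in all libraries of a genotype, and Cux2, listed at 0 in 4 of 12 libraries, are left out. Over all tested genes of each list, Sult3a1 included, the median is -2.07 for the male-biased and 1.51 for the female-biased genes.

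Where 7.27% of all genes were lower and 7.91% higher, 2 of 18 transcription factors of sex-dependent liver expression were lower and 0 higher. They were Foxa3, a winged-helix factor (40.1 to 80.4 CPM in db/+, 19.8 to 31.0 in db/db, log2 -1.12, SE 0.16), and Nr1i3, the nuclear receptor CAR (393 to 1060 against 121 to 335, log2 -1.44, SE 0.26). Of 33 tested paralogs of the 10 genes, 6 were lower and 3 higher, against the same shares of all genes. The other Cyp4a genes that passed fell less than the Cyp4a12 pair in point estimate: Cyp4a10 by 1.57 (SE 0.16), Cyp4a14 by 1.35 (SE 0.13) and Cyp4a31 by 1.50 (SE 0.17) on the log2 scale. Cyp4a32 had a larger estimate than these, with a wider SE (log2 -2.04, SE 0.80). It did not pass with edgeR (adjusted p = 0.125) and passed with DESeq2 (adjusted p = 0.0232). The elongases went both ways, with Elovl2 lower (log2 -0.92, SE 0.12) and Elovl1 (0.53, SE 0.10), Elovl6 (2.64, SE 0.59) and Elovl7 (2.75, SE 0.66) higher. Hsd3b4 was at or below 0.215 CPM in every library, and Socs2, given above, was the sixth gene lower. All of these except Cyp4a32 passed at an edgeR adjusted p between 0.00119 and 0.0360.

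Per length, the 10 genes spanned a wide range of levels. In db/+, the deposited FPKM averaged 66.5 ± 34.8 for Elovl3, 61.5 ± 24.9 for Cyp4a12a, 27.4 ± 8.72 for Cyp4a12b and 16.5 ± 8.71 for Selenbp2 (SD, n = 6 each). Slco1a1 averaged 5.84 ± 8.13, Bcl6 4.38 ± 5.14, Susd4 2.72 ± 1.87, Cish 1.16 ± 0.762, Cux2 0.399 ± 0.503 and Hsd3b5 0.370 ± 0.371 FPKM. Each neighbour in this order overlapped the next. In db/db the order was Elovl3 (14.8 ± 12.3 FPKM), Cyp4a12a (13.1 ± 7.86), Selenbp2 (12.1 ± 3.54), Cyp4a12b (2.42 ± 1.34), Bcl6 (1.80 ± 1.21), Cish (0.552 ± 0.474), Susd4 (0.267 ± 0.0832), Slco1a1 (0.0876 ± 0.0775) and Cux2 (0.0599 ± 0.0688), with Hsd3b5 at 0. There, Selenbp2 (6.32 to 17.2) and Cyp4a12b (0.498 to 3.98) were the only neighbours above 0 whose ranges did not overlap.

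The genes whose log2 CPM followed each of the 10 most closely over the 12 livers were taken from 11415 genes, as a description with the genotypes pooled. Cyp4a12b was followed by Cyp2c23 (Pearson r = 0.973) and Gba2 (0.964), Cyp4a12a by Notum (0.959) and Cyp4f13 (0.948), Susd4 by Ap4m1 (0.959) and Ang (0.941), and Elovl3 by Psmd4 (0.955) and Mbl1 (0.952). Slco1a1 was followed by Prdx4 (0.932) and Phf23 (0.930), Hsd3b5 by Sall2 (0.909) and Trip10 (0.906), and Cish by Tgm1 (0.902) and Baz1b (0.900). For Bcl6 they were Lix1l (0.890) and Zfp451 (0.879), for Cux2 Mical3 (0.884) and Cyp2c68 (0.881), and for Selenbp2 Cyp2c67 (0.882) and Xkr9 (0.840). These points share libraries, depth and genotype. Hsd3b5 was listed at 0 in all 6 db/db libraries and 1 db/+ library, and Cux2 in 4 of 12 libraries. Their r thus rest in part on ties at 0 and on low values.

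In 12 brain libraries of the same design, the levels were of another order. In CPM scaled to the library total alone, Hsd3b5 and Slco1a1 were listed at 0 in all 12, and Cyp4a12a, Cyp4a12b and Elovl3 stayed at or below 0.549 CPM. Susd4 had a median of 144 CPM in brain against 1.92 in liver, Bcl6 56.6 against 9.60, Cux2 15.6 against 0.144, Cish 8.98 against 4.16 and Selenbp2 1.44 against 27.6. Susd4, Bcl6, Cux2 and Cish were thus higher in the median brain library, and no test was made between the tissues.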

How the data were processed

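The authors deposited 1 file of expected counts per sample (whole numbers estimated per gene) and a table of FPKM values for the series. Per the submitters' processing notes, the build is GRCm39 and bcl2fastq was used. The sources used here name neither the aligner nor the counting tool. The kit named is not directional, so antisense and overlapping genes are not told apart. Genotype and drink came from the titles, because the separate genotype entry contradicts them for 12 of the liver and brain samples. The FPKM columns of 12 livers gave levels per length only, and 36 other columns of the table were not used. In the db/+ brazzein group, replicate 1 counts correlated best with the FPKM column of replicate 2 (r = 0.970, against 0.949 for its own), so those columns were used by group only. The headers of those 2 count files carry each other's name, and the replicate numbers here follow the sample titles.

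Counts were fitted with edgeR 4.0.16 in R 4.3.3 (TMM factors, filterByExpr by group, quasi-likelihood test) over 12 liver libraries in 6 groups. P-values were adjusted over 19352 genes, with a threshold of 0.05. The steps were tested on simulated data. The 10 genes and the lists were chosen with earlier results of these data known. Named were all 10 genes, up to 6 called genes per pathway list and up to 4 per sex-biased list by smallest p, Ghr, Stat5b, Socs2 and Igf1 in any case, and the 2 genes most alike to each by Pearson r of log2(CPM + 0.5), with a mean of at least 1 CPM. Genes named outside that rule (Jak2, Stat5a, Ptpn1, Ptpn11, Lepr, Alb, Serpina1c, Apoa1, Selenbp1, Fitm1, Rarres1 and the paralogs beyond 6) were chosen after their values were seen. The alternatives tried were RLE factors, DESeq2 1.42.0, no filter, a replicate block, a genotype-only fit, leaving out each library and, added after seeing the data, leaving out 2 libraries or both brazzein groups, or the block with those 2 numbers exchanged. Counts are estimates, so no counting interval is given.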

Additional observations from a re-analysis of the deposited data

Results flagged for a closer look

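Slco1a1 in replicate 1 of the db/+ brazzein livers stood at 141 CPM, far above the other 5 db/+ libraries (4.97 to 33.1 CPM). In db/db, replicate 2 of the brazzein livers stood at 1.13 CPM, above the other 5 (0.113 to 0.472 CPM). These were the 2 of 19 sets of 6 libraries with a gap beyond Dixon's limit. The limit's rate of about 1 in 20 by chance holds for values from a single normal distribution. CPM values pooled over drinks need not follow one, so the number of flags is a description. Both libraries are also those with the most genes near 0 among the 12; the part of that in the Slco1a1 values was not tested.

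Cish had estimates of opposite sign from sucrose to brazzein in the 2 genotypes: both db/db brazzein libraries were below both db/db sucrose libraries, and both db/+ brazzein libraries were above both db/+ sucrose libraries. The difference between these effects was -3.47 on the log2 scale (SE 1.08), with an edgeR adjusted p of 0.397 and a DESeq2 adjusted p of 0.0481.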

How the results depend on the processing

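The count of 6 genes lower over drinks stayed between 4 and 7 under every alternative run (7 with DESeq2, 7 with the replicate block, 5 with the block and the 2 db/+ brazzein numbers exchanged, 4 to 6 with 1 library left out), and the count of higher genes stayed at 0. Cyp4a12a, Cyp4a12b, Slco1a1 and Susd4 passed in all 20 alternatives, Elovl3 in 13 and Hsd3b5 in 8. Counts on single drinks moved more. DESeq2 called 5 on water, 6 on sucrose, 5 on brazzein, 1 for drinks within db/db, 3 within db/+ and 1 for the interaction. Leaving out 1 library gave 0 to 2 on water, 0 to 2 on sucrose, 1 to 2 on brazzein and 0 to 1 for drinks within db/db. With 1 library left out, calls over all genes on single drinks moved too, up for some libraries and down for others. Without the 2 libraries with the most near-zero genes, 3 were called on water and 3 on sucrose. Calls over all genes rose there as well, to 500 on water and 391 on sucrose among 20515 tested genes. With all libraries kept they were 293 and 168 among 19352. The causes were not tested.

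Signs turned for Bcl6 (0.63 and 0.35, without replicate 2 of the db/+ water or brazzein livers; -2.71 to 0.63 with 1 library left out), Cux2 (0.027 without the latter, 0.14 without both brazzein groups; -3.16 to 0.027 with 1 left out), Stat5b (-0.28 without replicate 2 of the db/db brazzein livers, -0.61 without the 2 libraries; -0.28 to 2.95 with 1 left out) and Ghr (0.0055 without the 2 libraries, 0.013 without both brazzein groups). None of these 4 passed in any of those fits.

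Over all genes, DESeq2 called 4848 for genotype over drinks against 2937, and 2132, 1590 and 1912 on water, sucrose and brazzein against 293, 168 and 305. With 1 library left out, 1407 to 3402 were called over drinks. The replicate block called 147, 72 and 194 on the single drinks and 2 of the 10 genes on brazzein (Cyp4a12b and Susd4). The numbers were not taken as pairs: r between same-numbered deviations was -0.117 to 0.093, with 0 of 15 above 0.1. With the db/+ brazzein numbers exchanged, as the headers of those files have them, it was -0.081 to 0.117, with 2 of 15 above 0.1. Cish passed with the block as numbered (adjusted p = 0.0326) and not with the exchanged numbers (0.0539), where Hsd3b5 did not pass either (0.0507) and brazzein gave 1 gene.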

Other observations

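Zonation genes of the liver lobule were called in both directions between genotypes, where 7.27% of all genes were called lower and 7.91% higher. Of 13 pericentral genes, 6 were lower in db/db and 2 higher by the edgeR test (list median -0.63 on the log2 scale), among them Cyp1a2, a cytochrome P450 (log2 -1.44, SE 0.21), Oat, ornithine aminotransferase (-0.96, SE 0.22), and the Wnt-linked receptor Lgr5 (-1.02, SE 0.20), with the ammonium transporter Rhbg higher (1.53, SE 0.21). Of 13 periportal genes, 3 were higher and 2 lower (list median 0.05), with Hsd17b13, a lipid droplet enzyme, higher (0.70, SE 0.13) and the cadherin Cdh1 lower (-2.41, SE 0.33). Their adjusted p lay between 0.00408 and 0.0259.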
